A study of Mus musculus with 18 samples.

Results

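Nephrin and its Kirrel relatives were measured in 2 tissues in which the transcription factor Ptf1a acts. The genes are Nphs1, which encodes nephrin, and Kirrel, Kirrel2 and Kirrel3, and they were taken by symbol from the expression table, 4 of its 23228 gene rows. The table holds RNA sequencing values for 2 samples, both from mice of the ICR strain and both labelled WT. For the neural tube sample, embryos that also carried the 2.3Ptf1a-GFP transgene were dissected at E12.5 and their GFP-positive cells were sorted. In this transgene GFP is driven by a beta-globin basal promoter under an autoregulatory Ptf1a enhancer of 2.3 kb. The pancreas sample was whole, unsorted E15.5 pancreas. Each label names 2 libraries and the table gives 1 value per tissue, read here as the authors' pooled value, so there is no SD, no test and no replicate check for any difference.

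Nephrin and the Kirrel proteins are single-pass membrane proteins of the immunoglobulin superfamily that bind one another across cell contacts, as like or unlike partners. In kidney podocytes nephrin and Kirrel, also called Neph1, build the slit diaphragm, and phosphorylated tyrosines of their cytoplasmic tails recruit adaptors that act on actin. Outside the kidney, Nphs1 and Kirrel2 are known as genes of Ptf1a-dependent inhibitory precursors in the nervous system, and both proteins have been described in pancreatic islets. Ptf1a itself acts with an E protein and with Rbpj or Rbpjl in the PTF1 complex, which binds an E-box beside an Rbpj-type site.

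Kirrel2 and Nphs1 lie head to head on chromosome 7, and the short space between them holds E-boxes beside Rbpj-type sites. In the mm9 annotation the Kirrel2 models end at 31242709 on the minus strand and the Nphs1 models begin at 31243334 on the plus strand, which leaves 624 bases between them. This space is set by the outermost models. The longest coding transcripts start farther apart, at 31242534 for Kirrel2 and 31244744 for Nphs1, and the RefSeq starts lie 2543 bases apart. An E-box was searched for as CANNTG. The form of it with GC at its centre, CAGCTG, here called the GC E-box, is also counted among the E-boxes. The Rbpj-type motif was searched for as TGGGAA, and all motifs on both strands. The space held 5 E-boxes, 3 of them GC E-boxes, and 4 Rbpj-type motifs. The stretches around the matches that lie close together are printed because they carry both kinds, on the plus strand, with every E-box and every Rbpj-type motif of either strand in capitals. The first is chr7:31242853-31242973 and the second chr7:31243197-31243303.

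Kirrel2 side: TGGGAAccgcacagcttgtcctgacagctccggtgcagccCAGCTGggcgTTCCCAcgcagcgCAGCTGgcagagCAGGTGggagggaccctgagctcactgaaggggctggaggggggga

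Nphs1 side: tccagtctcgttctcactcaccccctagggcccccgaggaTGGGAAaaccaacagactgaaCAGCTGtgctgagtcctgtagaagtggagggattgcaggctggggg

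On the Kirrel2 side an Rbpj-type motif began 10 bases after the start of one GC E-box and 13 bases before the start of the next. On the Nphs1 side a GC E-box began 21 bases after the start of an Rbpj-type motif. A GC E-box starting within 30 bases of an Rbpj-type motif was found in 1.86% of the windows of 624 bases directly before 20058 protein-coding genes, and any E-box that close to one in 14.9%. A GC E-box was present in 24.7% of those windows and an Rbpj-type motif in 45.6%. The 3 close pairs of a GC E-box and an Rbpj-type motif in this space, of which 2 share a motif, were matched by 2 windows, those of Kirrel2 and Nphs1, which are the same space read from its 2 ends. The space and the count of pairs were chosen after the sequence was seen. A match is a description of letters, and binding at these positions was not analysed here.

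RefSeq windows of 250 bases before to 50 after a gene start (GRCm38.p6) were found for 3 of the 4 genes, Nphs1, Kirrel and Kirrel2. The Kirrel2 window held 3 Rbpj-type motifs. In mm9 this window overlaps the space between the gene models. Its motif farthest from the gene start, at 31242715 to 31242720, is 1 of the 4 already counted in that space. At least 3 Rbpj-type motifs were held by 0.368% of the 32851 windows, and at least 1 by 25.6%. The single E-box of the Kirrel2 window began 12 bases before the gene start and lay more than 30 bases from each of its Rbpj-type motifs. The Kirrel and Nphs1 windows held 0 E-boxes and 0 Rbpj-type motifs, in a set where 72.3% of windows held an E-box. The Nphs1 window matches mm9 at 31244827 to 31245126, inside a first exon of one transcript and well downstream of the earlier Nphs1 models. The Kirrel2 bases before the start are shown because of the repeated motif, from chr7:30457516-30457765 (GRCm38.p6), on the minus strand, in the same capitals.

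Kirrel2 promoter: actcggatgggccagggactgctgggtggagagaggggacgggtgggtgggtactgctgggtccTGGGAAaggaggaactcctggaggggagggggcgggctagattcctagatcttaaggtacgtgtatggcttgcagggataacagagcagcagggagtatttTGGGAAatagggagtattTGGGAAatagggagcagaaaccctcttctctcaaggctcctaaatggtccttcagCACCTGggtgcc

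**Figure D1:**
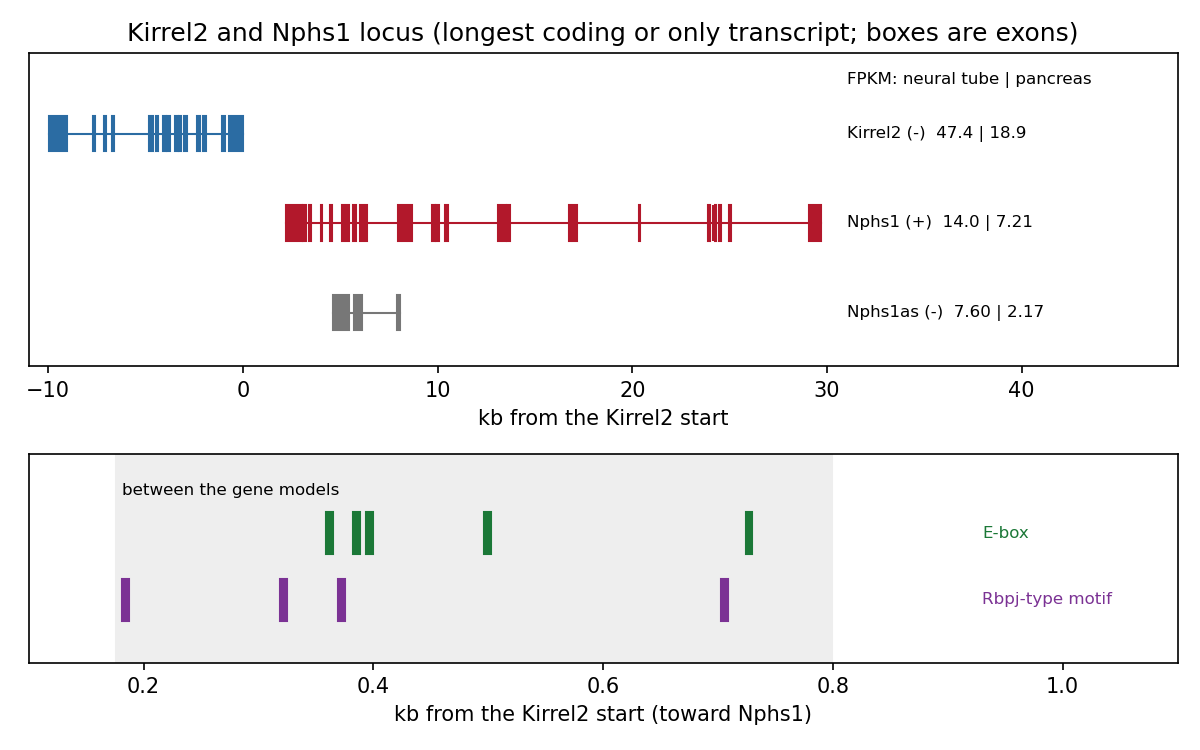
The upper panel maps the Kirrel2, Nphs1 and Nphs1as transcripts by distance in kb from the Kirrel2 start (boxes are exons of the longest coding transcript or of the only transcript), with the FPKM of each gene in neural tube and pancreas. The lower panel marks the 5 E-boxes and 4 Rbpj-type motifs in the 624 bases between the gene models, shaded.

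All 4 genes had the higher value in the sorted neural tube cells, none by as much as 4 times on the scale used for calls. Values are FPKM, which divides a gene's fragments by transcript length and by the mapped total, so levels can be compared between genes. A gene was called higher in a sample when log2(FPKM + 1) differed by at least 2, which is 4 times, and the higher value was at least 5 FPKM. Similar here means at least 5 FPKM in each sample with no more than 2 times between them. Of the 4 genes 0 were called higher in either sample, beside 10.3% of the 10744 genes that reached 5 FPKM in either that were called toward neural tube and 11.9% toward pancreas. The value was above that of pancreas in neural tube for 4 of 4 genes, beside 48% of the 14303 genes that reached 1 FPKM in either. Of the 3 that reached 5 FPKM in either sample, 3 reached it in both, beside 65.5% of those 10744 genes. Kirrel3 reached it in neither and could not be called. Nphs1 and Kirrel2 were chosen with their expression in both tissues already known, so the 3 of 3 is only a description. The 4 log2 differences all lay between 0.8 and 1.3, a range that held 10.1% of those 14303 genes. That range was drawn around the 4 values themselves, so the share is only a description. Without the added 1 FPKM, Kirrel2 at 1.32 and Kirrel3 at 2.02 lay outside it. The median of the 4 log2 differences was 1.07, against -0.07 over the same 14303 genes.

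Kirrel2, the family member known from brain and islets, was the most abundant in each tissue. It stood at 47.4 FPKM in the neural tube cells and at 18.9 FPKM in pancreas. The neural tube value was 2.50 times that of pancreas, a log2 difference of 1.28, and a difference at least that large was seen in 18.3% of the 10744 genes. Its neural tube value was above those of 93.4% of all gene rows and its pancreas value above those of 83.5%. Kirrel2 alone made up 60.9% of the summed FPKM of the 4 genes in neural tube and 57.7% in pancreas, so it led the family by much the same share in both. The gene (chromosome 7, 31232553 to 31242709, minus strand) spans 10.2 kb and has 4 annotated coding transcripts.

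Nphs1, the nephrin gene, was at 14.0 FPKM in the neural tube cells and 7.21 FPKM in pancreas. The ratio of 1.95 put it just inside the limit for similar, which held for 43.1% of those 10744 genes and 65.9% of the 7037 that reached 5 FPKM in both. Its log2 difference was 0.87, reached or passed by 25.9% of the 10744 genes, and with equal totals it was 1.47, no longer similar. Kirrel2 was 3.38 times as abundant as Nphs1 in neural tube and 2.63 times in pancreas. Nphs1 (chromosome 7, 31243334 to 31272242, plus strand) has 3 coding transcripts, and the longest has 30 exons and 4608 bases.

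Kirrel, the Neph1 gene and partner of nephrin in podocytes, was at 14.2 FPKM in the neural tube cells and 6.16 FPKM in pancreas. These values were 2.31 times apart, a log2 difference of 1.09. Kirrel and Nphs1 were close to each other in both tissues: the Nphs1 value was 0.985 of the Kirrel value in neural tube and 1.17 times that value in pancreas. Without replicates the order of these 2 genes cannot be told, and it was opposite in the 2 samples. Kirrel (chromosome 3, 86882515 to 86978669, minus strand) spans 96.2 kb, and its longest transcript has 7278 bases.

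Kirrel3, which has a known role in hippocampal synapse formation, was the least abundant in each tissue. It was at 2.17 FPKM in the neural tube cells and 0.536 FPKM in pancreas, under the 5 FPKM minimum in both, so it could not be called. The FPKM ratio of 4.05 was the highest of the 4 genes, but the log2 difference after adding 1 FPKM was 1.05, because that scale shrinks the differences of low genes. It made up 2.79% of the family's summed FPKM in the neural tube cells and 1.63% in pancreas. Kirrel3 (chromosome 9, 34293711 to 34844301, plus strand) spans 550.6 kb. The summed FPKM of the 4 genes was 77.8 for neural tube and 32.8 for pancreas, 2.37 times apart.

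**Figure D2:**
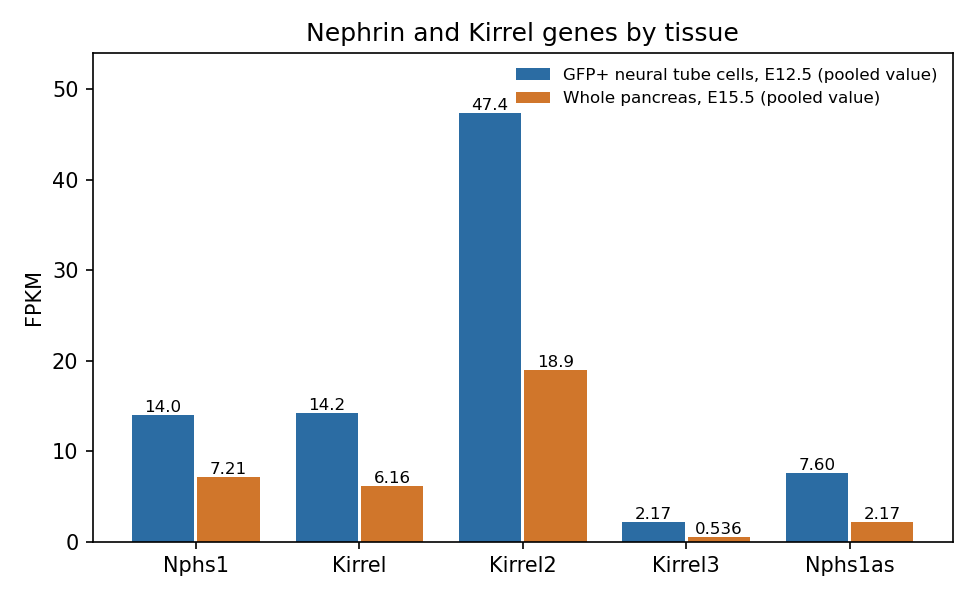
Bars give the FPKM of the 4 genes and of the antisense gene Nphs1as in GFP-positive neural tube cells (blue) and whole pancreas (orange), 1 pooled value each with no error. Kirrel2 is the highest in both tissues, at 47.4 and 18.9, and every blue bar is above its orange neighbour.

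The depth behind these values is not given as counts, and only a rough estimate could be made. Among genes with 1 annotated transcript, low values times length were most often near 0.0415 FPKM kb in neural tube and 0.0215 in pancreas. Only 19.8% of 711 and 22.9% of 1048 such low values lay near these, which were read as 1 fragment. Taking each gene's longest coding transcript, Kirrel2 would then rest on about 3828 and 2950 fragments, and Nphs1 on about 1559 and 1542. Kirrel would rest on about 2499 and 2081 fragments. Kirrel3 would rest on about 199 and 95, a counting error near 7.09% and 10.3%. These errors cover counting only and depend on that reading, and the spread between embryos or litters is unknown.

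An antisense gene shares sequence with Nphs1. Nphs1as (chromosome 7, 31247183 to 31250610, minus strand) was at 7.60 FPKM in the neural tube cells and 2.17 FPKM in pancreas, 3.50 times apart. Of its 1339 exonic bases 597 (44.6%) also lie in Nphs1 exons, and these are 11.3% of all Nphs1 exonic bases. The counting is not stated to use strand, so reads of the shared bases cannot be assigned to either gene. Nphs1 exceeded Nphs1as by 1.85 times in neural tube and by 3.32 times in pancreas.

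**Figure D3:**
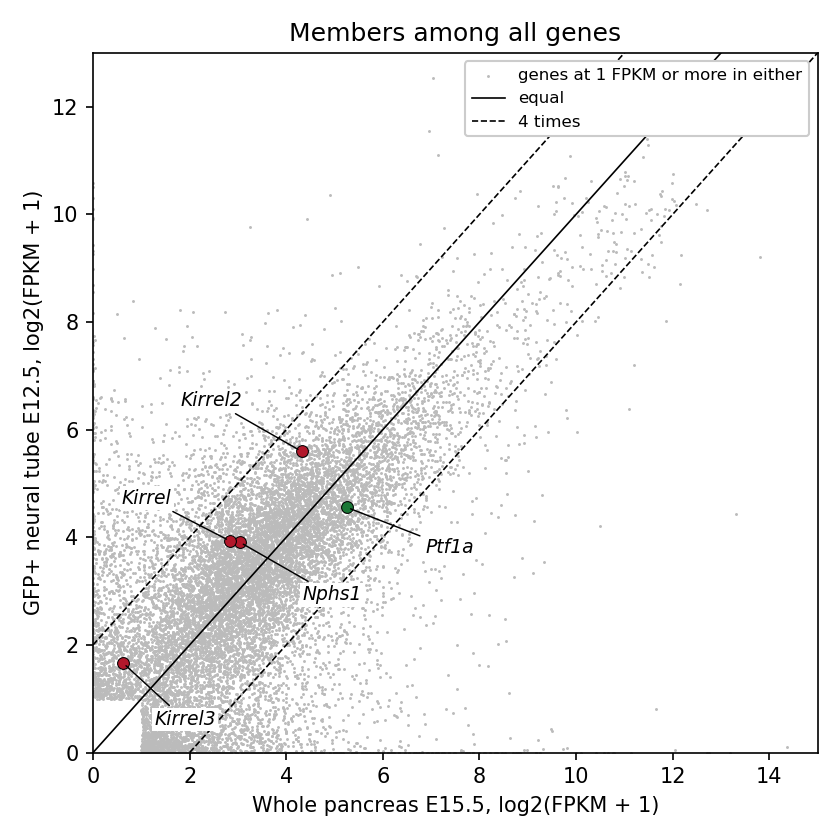
Each grey point is a gene that reached 1 FPKM in either sample, placed by log2(FPKM + 1) in whole pancreas (x axis) and in GFP-positive neural tube cells (y axis). The 4 red points lie between the line of equal values and the dashed line for 4 times higher in neural tube, whereas Ptf1a (green) lies below the line of equal values.

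The other coding genes around Kirrel2 and Nphs1 differed in direction and size. Aplp1, a neuronal relative of the amyloid precursor gene, lies 1.97 kb from Kirrel2 and was at 138.6 FPKM in the neural tube cells and 36.8 in pancreas, a log2 difference of 1.88. Prodh2, a proline dehydrogenase family gene 6.40 kb beyond Nphs1, went the other way, at 0.0732 FPKM in the neural tube cells and 5.85 in pancreas. Arhgap33, further along, was at 74.7 against 3.51 and was called toward neural tube. BC053749, beyond Arhgap33, was at 9.43 FPKM in the neural tube cells and 4.30 in pancreas. Its log2 difference of 0.98 lay between those of Nphs1 and Kirrel2. Nfkbid was under 1 FPKM in both samples, at 0.628 and 0.574, and Hcst was listed at 0 in neural tube and at 0.408 in pancreas. Around Kirrel, the nearest coding genes were Cd1d1, an antigen-presenting protein gene called similar at 14.1 and 8.89 FPKM, and Fcrls, called toward pancreas at 0.249 and 5.15. Dclk2, a doublecortin-like kinase gene farther off, was called toward neural tube at 36.3 against 0.930 FPKM. The nearest coding gene before Kirrel3 is Ets1, more than a megabase away, at 1.95 FPKM in the neural tube cells and 13.5 in pancreas. St3gal4, 9.86 kb after Kirrel3, was called toward pancreas at 3.35 against 16.5 FPKM. Both nearest neighbours of Kirrel3 thus had the higher value in the tissue where Kirrel3 had the lower one.

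Other head-to-head pairs of coding genes were also expressed in both tissues. There were 656 head-to-head pairs with outermost models no farther apart than those of Kirrel2 and Nphs1, this pair included. Of these, 258 (39.3%), again with this pair, had both genes at or over 5 FPKM in each sample. The log2 differences of Kirrel2 and Nphs1 lay 0.40 apart, against a median of 0.76 over the 258 pairs. At least as close were 27.1% of those pairs, itself among them.

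Partners of the slit diaphragm were detected in part. Of 20 slit diaphragm and polarity genes 16 reached 5 FPKM in either sample. Of these 16, 10 reached it in both, near the 65.5% share of the 10744 genes that reached it in either. Of the 16, 1 was called toward neural tube, 1 toward pancreas and 6 similar, beside 10.3%, 11.9% and 43.1% of all 10744 genes at that level. Ptpro, a receptor tyrosine phosphatase of podocytes and neurons, was at 8.64 FPKM in the neural tube cells and 0.488 in pancreas. Cd2ap, an adaptor that binds the nephrin tail, was at 2.74 FPKM in the neural tube cells and 23.8 in pancreas. The actin crosslinker Actn4, at 48.0 and 62.5 FPKM, and the polarity gene Pard3, at 14.1 and 12.1, were the similar genes with the highest means. The median log2 difference of the 16 was 0.18, beside -0.0029 over all 10744 genes at that level.

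Most of the kinases and adaptors that act on nephrin tails were expressed in both tissues. All 21 reached 5 FPKM in either sample and 19 reached it in both, beside 65.5% of the 10744 genes that reached it in either. Of the 21, 1 was called toward neural tube, 0 toward pancreas and 8 similar, beside the same 10.3%, 11.9% and 43.1%. The called gene was Pak1, a kinase downstream of Rac and Cdc42, at 41.2 FPKM in the neural tube cells and 7.73 in pancreas. Rac1, at 95.4 and 115 FPKM, and the adaptor gene Crk, at 37.5 and 42.6, were the similar genes with the highest means. Named after their values were seen, Fyn, the kinase that phosphorylates nephrin, was at 37.9 and 20.7 FPKM and was similar. The paralogous adaptors Nck1 and Nck2, which bind phosphorylated nephrin, had their higher values in different tissues. Nck1 was at 9.77 FPKM in the neural tube cells and 24.1 in pancreas. Nck2 was at 20.8 FPKM in the neural tube cells and 11.0 in pancreas. The median log2 difference of the 21 genes was 0.84, with 14 of them above their pancreas value in neural tube, beside the 48% given above.

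**Figure D4:**
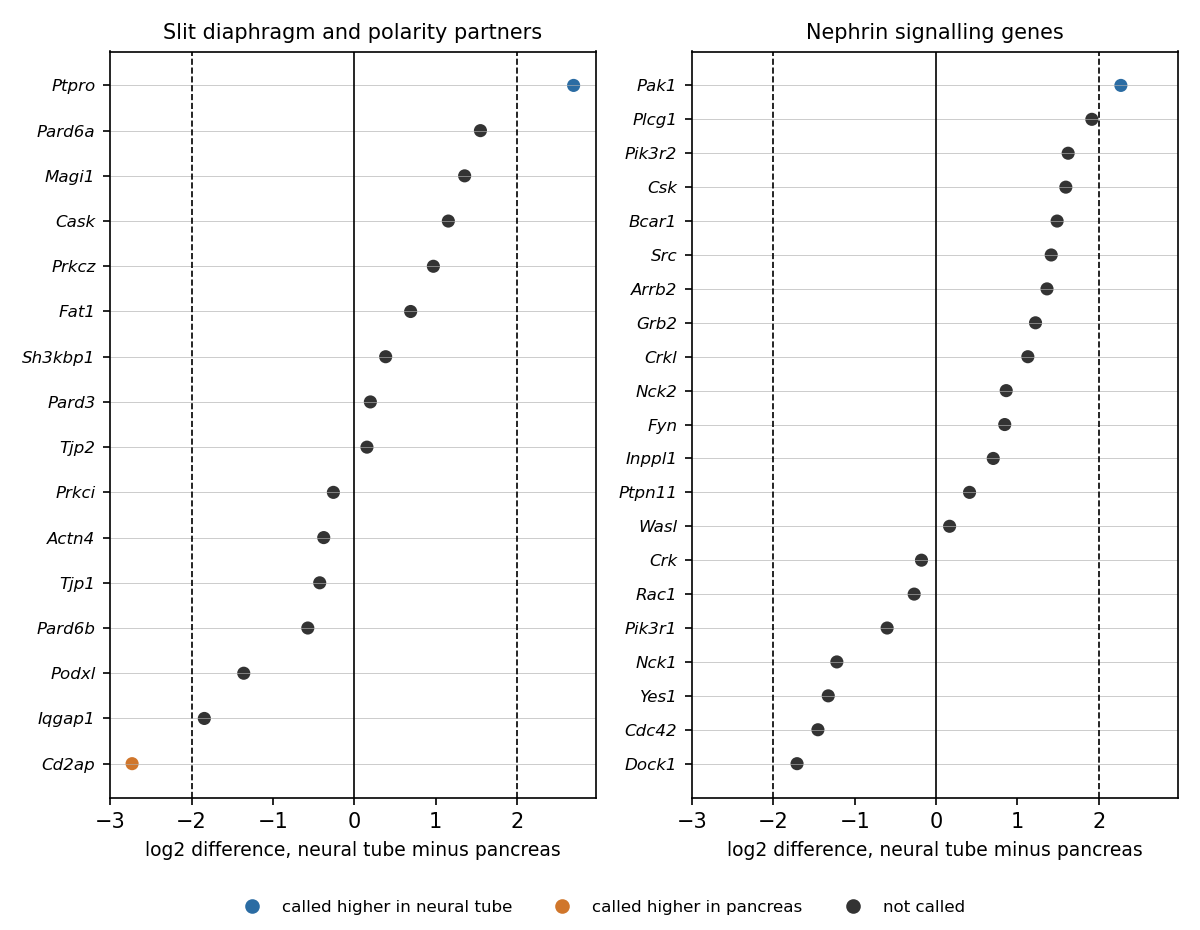
Points give the log2(FPKM + 1) difference, neural tube minus pancreas, of the 16 slit diaphragm and polarity genes (left) and 21 nephrin signalling genes (right) that reached 5 FPKM in either sample, with dashed lines at 4 times. Ptpro and Pak1 lie past the line toward neural tube and Cd2ap past the line toward pancreas.

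Ptf1a, the factor common to the 2 tissues, was ordered opposite to the 4 adhesion genes. It was at 22.5 FPKM in the neural tube cells and 37.1 in pancreas and was called similar. Kirrel2 was therefore above Ptf1a in the sorted cells and below it in pancreas. Rbpj was at 27.1 and 14.0 FPKM, and Rbpjl at 0.0306 and 87.1. Of the E proteins, Tcf3 was called toward neural tube at 98.8 against 21.6 FPKM. Tcf4 was at 40.8 and 11.6, and Tcf12 at 71.7 and 25.4, both without a call.

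The cell make-up of the 2 samples differed along with these genes, and its part in their differences was not tested. Of all 10744 genes at 5 FPKM in either sample, 10.3% were called toward neural tube and 11.9% toward pancreas, the background for the marker counts. The 10 dorsal inhibitory neuron markers summed to 626.6 FPKM in the neural tube cells and 1.09 in pancreas, and 10 of 10 were called toward neural tube. Called in the same direction were 7 of 7 neuronal markers with a value and 8 of 8 neural progenitor markers. The neuronal list held 8 genes, and Map2 had no value. The 12 acinar markers summed to 1.28 FPKM in the neural tube cells and 48102 in pancreas, with 11 called. Beta cell markers, 7 of 8 called, summed to 1.58 and 1954.5 FPKM, and Ins1, Ins2 and Iapp were listed at 0 in neural tube. In pancreas 5 of 7 duct, 5 of 8 endothelial, 6 of 8 mesenchymal, 3 of 4 mesothelial and 3 of 6 immune markers were called higher. The 12 endocrine markers summed to 45.7 FPKM in the neural tube cells and 2796 in pancreas, with 7 called, and Ppy was listed at 0 in neural tube. Of 6 erythroid markers 4 were called toward pancreas and 2 toward neural tube, and of 6 neural crest markers 1 in each direction. Of 12 podocyte markers 7 reached 5 FPKM in either sample, and of these 2 were called toward neural tube and 3 toward pancreas, with sums of 58.8 and 89.2 FPKM, and several of these genes are used by other cell types. In bulk samples, fewer cells of a type and less RNA per cell cannot be told apart, and a value of whole pancreas is not a value per Ptf1a-expressing cell.

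The scaling of the samples moved the size of the differences but not their direction. All genes together gave 46.4% of calls toward neural tube as deposited, 66.1% with equal totals, 36.2% with housekeeping scaling and 58.3% with totals made equal after the most abundant genes were left out. The median log2 difference of genes that reached 1 FPKM in both was 0.02 as deposited and 0.58, -0.27 and 0.34 with those 3 scalings. Housekeeping scaling made the median FPKM of 15 housekeeping genes equal. In both samples that median was the value of Ywhaz, 187.6 FPKM in neural tube and 148.1 in pancreas, so the scaling rests on 1 gene. Gene by gene, the 15 had a median log2 difference of -0.42, and 6 of them were higher in neural tube. A scaling by that gene-by-gene median, which would raise the neural tube values, was not run. Under each of the 5 scalings the 4 genes kept the higher value in neural tube. The scalings multiplied the neural tube values by 0.789 to 1.54, and turning even Nphs1 would have taken a factor under 0.513. Neither these scalings nor the 2 other pseudocounts could therefore turn a direction. Over both kinds of setting Kirrel2 ranged from 0.95 to 1.89 in log2, Kirrel from 0.78 to 1.68, Nphs1 from 0.56 to 1.47 and Kirrel3 from 0.37 to 1.84. The lowest values of Kirrel2, Kirrel and Nphs1 came from the housekeeping scaling, and so from the Ywhaz values. Tissue, stage, sorting and RNA extraction also differed between the same 2 samples and cannot be told apart.

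**Figure D5:**
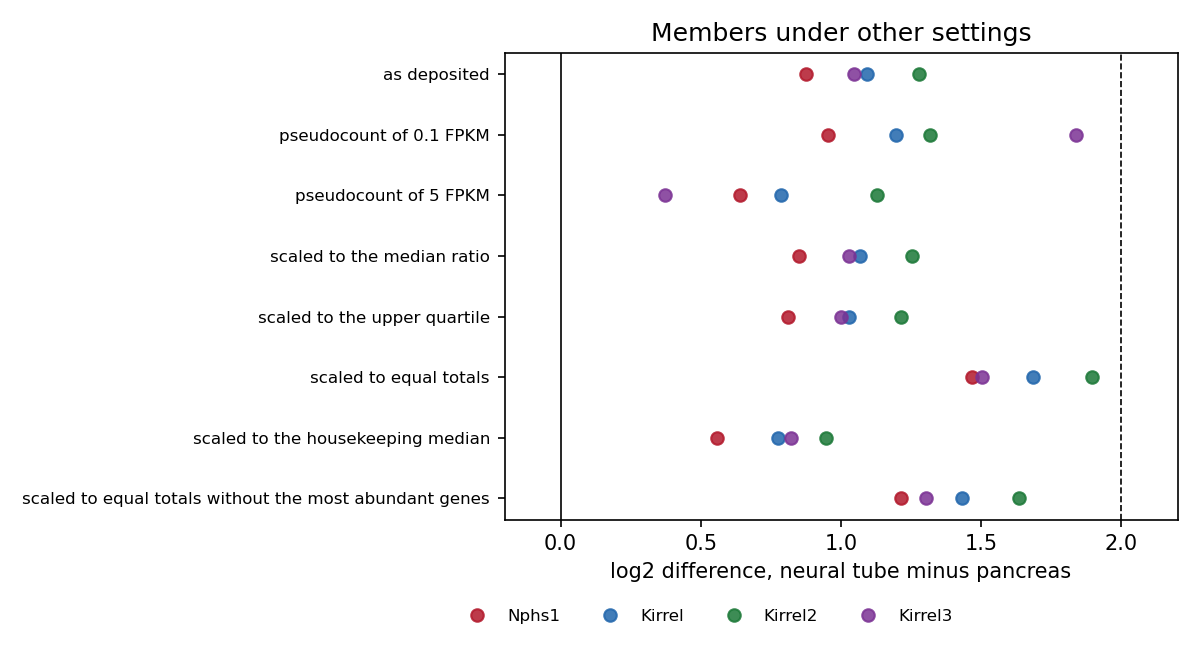
Points give the log2 difference, neural tube minus pancreas, of the 4 genes (colours) with other pseudocounts and other scalings of the samples (rows), and the dashed line marks 4 times. All points lie above 0 and below 2, from 0.37 for Kirrel3 with a pseudocount of 5 FPKM to 1.89 for Kirrel2 with equal totals.

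Many other genes had nearly the same pair of values as each of the 4. Likeness was the distance over log2(FPKM + 1) in the 2 samples, among 18729 genes with a full symbol. Within a distance of 0.25 there were 157 genes for Nphs1, 117 for Kirrel, 58 for Kirrel2 and 71 for Kirrel3. The 3 closest to Nphs1 were Prkag2, Tfap4 and Klhl23, and those to Kirrel2 were Usf2, Safb2 and Cdc42se2. Those to Kirrel were Jmjd7, Fat4 and D5Ertd579e, and those to Kirrel3 were Usp29, Pcdhga9 and Hist1h3d.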

How the data were processed

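The authors deposited 1 table of FPKM values, 1 column per tissue, per the file headers. Cuffdiff 2.0.2, TopHat2 2.0.4, TopHat, CASAVA and build mm9 are named, per the submitters' processing notes, with no roles. The gene annotation is not given in the sources used here. RNA came, per the labels' protocols, from a column kit for sorted cells and from Trizol for pancreas, and they name a second library kit for pancreas only. The other 16 of 18 samples, of chromatin, were not analysed here.

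Differences were log2(FPKM + 1), neural tube minus pancreas, called by size as the report states. Coordinates and exon lengths come from GENCODE M1 on NCBIM37 (mm9), and promoter windows from RefSeq. Python 3.11.15, numpy 2.4.6 and pandas 2.3.3 were used. The call rule was run on simulated data with planted changes larger than those of the 4 genes and an assumed noise. That run checks the code only, and not the calls of these genes. There were 13 alternatives: pseudocounts, scalings, thresholds, minimums and the similarity limit. Named were the 4 genes, called genes of each list with the 2 similar ones of highest mean, the PTF1 genes, marker lists, neighbours and nearest genes. The genes and lists were chosen with earlier results of these data known. Protein sequences were not used here, and 1 gene of the slit diaphragm list is not reported here by name or plotted. Exact zeros are given as listed at 0, since Eif3j, a translation factor gene, was at 0 in neural tube and 47.1 FPKM in pancreas.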

Additional observations from a re-analysis of the deposited data

How the results depend on the processing

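No paired analysis was possible because each tissue has 1 pooled value, and for the same reason no replicate could be left out. Of the 13 alternatives only a scaling can turn a direction, and the 5 used were too small to do so. Their factors on neural tube ran from 0.789 to 1.54, and Nphs1, with the lowest ratio, would have needed one under 0.513. With each scaling the log2 differences of Nphs1, Kirrel, Kirrel2 and Kirrel3 stayed above 0. The similar call of Nphs1 was lost at 1.47 with equal totals, at 1.21 with equal totals after the most abundant genes were left out, and, by construction, at 0.87 with a minimum of 10 FPKM or a limit of 1.5 times. With housekeeping scaling, which rests on Ywhaz alone, Kirrel at 0.78 and Kirrel2 at 0.95 became similar. At a threshold of 2 times Kirrel (1.09) and Kirrel2 (1.28) were called toward neural tube.

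Over all genes, calls toward neural tube went from 1106 to 512 with a pseudocount of 5 FPKM, 1909 with equal totals, 2494 at 2 times and 546 at 8 times. Calls toward pancreas went from 1278 to 600 with a pseudocount of 5 FPKM, 2690 at 2 times and 653 at 8 times. In the signalling list the 1 call toward neural tube became 0 with a pseudocount of 5 FPKM, housekeeping scaling or 8 times, 6 with equal totals, 2 after the most abundant genes were left out and 9 at 2 times, and the 0 toward pancreas became 4 at 2 times. In the slit diaphragm list the 1 call toward neural tube became 0 with a pseudocount of 5 FPKM, a minimum of 10 FPKM or 8 times, 3 with equal totals, 2 after the most abundant genes were left out and 4 at 2 times. Its 1 call toward pancreas became 2 with a pseudocount of 0.1 FPKM or housekeeping scaling, 3 at 2 times and 0 with a pseudocount of 5 FPKM or 8 times. Kirrel3, under 5 FPKM in both samples, moved from 1.84 with a pseudocount of 0.1 FPKM to 0.37 with 5 FPKM, and its counting error, roughly estimated, was 7.09% and 10.3%.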
